A study of Mus musculus with 32 samples.

Results

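The vomeronasal type 1 receptors (V1rs) Vmn1r1 to Vmn1r54 were examined in RNA of the vomeronasal organ (VNO), the sensory organ in which mice detect pheromones. The genes were taken by symbol alone, as every Vmn1r gene with a number from 1 to 54 and no pseudogene suffix. This gave 54 genes among the 49671 listed and among the 207 listed Vmn1r genes without such a suffix. The VNO epithelium was taken from 32 individual mice aged 42 days, 4 males and 4 females of each of the strains C57/BL6 (B6), 129S6/SVEV (129), SJL/J (SJL) and SWR/J (SWR). All are inbred strains without an engineered allele or treatment in the labels, and the text of the study names another 129 substrain than the labels do. Each library is ribodepleted, strand-specific total RNA of 1 mouse, so that every value is that of an animal.

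V1rs are receptors coupled to G proteins in the apical layer of the VNO neuroepithelium, where the neurons contain the G protein subunit Gnai2. Each neuron generally selects 1 receptor gene, so that the RNA level of a receptor in whole tissue depends on how many neurons chose it and on how much RNA each of them holds. These cannot be told apart in these libraries. The family is divided into clades by sequence. Mice that lack a chromosomal stretch with V1ra and V1rb genes are known for altered mating and maternal aggression. Signals of the receptors pass through phospholipase C to the channel Trpc2.

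The genes lie at 5 loci of GRCm38, the build of the counts. Vmn1r1 stands alone at chr1:182154704-182164486 and Vmn1r2 and Vmn1r3 lie at chr4:3167320-3185358. The other 51 are on chromosome 6. Of these, 28 (Vmn1r4 to Vmn1r31) lie at chr6:56924015-58475330, and 8 (Vmn1r32 to Vmn1r39) at chr6:66552180-66810609. Those with a clade among their synonyms at both loci belong to V1rc. The remaining 15 (Vmn1r40 to Vmn1r54) lie at chr6:89707540-90271213 and belong to V1ra and V1rb. In the annotation, each of the 54 genes has 1 coding exon, with a coding sequence of 888 to 1017 bases. A clade could be assigned to 46 of them.

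Several of these genes are close copies of each other, and only reads with a unique place in the genome were counted. In 22 of the 54 genes, at least 1 coding stretch as long as a read also occurs in another gene. Reads from such stretches can be lost or misplaced. The pairs that matter most for the strain differences are shown by the 120 coding bases in which the partners differ most without a gap. Capitals mark the bases at which the partners differ, and sequence and place are from GENCODE on GRCm38.

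Vmn1r7 and Vmn1r8 were 97.0% identical over the coding sequence of Vmn1r7, shared their first 143 bases and differed by 10 of 120 bases in this stretch (chr6:57024511-57024630, minus strand, and chr6:57036609-57036728, plus strand).
Vmn1r7: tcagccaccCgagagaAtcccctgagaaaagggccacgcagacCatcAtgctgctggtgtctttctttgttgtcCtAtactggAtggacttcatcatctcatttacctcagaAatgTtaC
Vmn1r8: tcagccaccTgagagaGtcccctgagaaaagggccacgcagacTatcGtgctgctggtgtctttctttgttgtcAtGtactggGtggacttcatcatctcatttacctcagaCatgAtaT

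Vmn1r20 and Vmn1r27 were 97.5% identical and differed by 6 of 120 bases in this stretch (chr6:57431820-57431939, plus strand, and chr6:58215769-58215888, minus strand).
Vmn1r20: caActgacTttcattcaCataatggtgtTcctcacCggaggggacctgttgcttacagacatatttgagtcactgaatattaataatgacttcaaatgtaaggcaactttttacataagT
Vmn1r27: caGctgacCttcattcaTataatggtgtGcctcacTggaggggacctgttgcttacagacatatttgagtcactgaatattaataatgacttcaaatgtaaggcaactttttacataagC

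In the annotation, by contrast, Vmn1r53 had no read-long stretch in common with another gene, though sequences of strains other than B6 were not examined. Its closest relative, Vmn1r44, was 91.3% identical and differed by 16 of 120 bases here (chr6:90223672-90223791, minus strand, and chr6:89893823-89893942, plus strand).
Vmn1r53: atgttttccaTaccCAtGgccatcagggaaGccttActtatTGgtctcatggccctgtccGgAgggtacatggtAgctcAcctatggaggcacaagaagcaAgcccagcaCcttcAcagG
Vmn1r44: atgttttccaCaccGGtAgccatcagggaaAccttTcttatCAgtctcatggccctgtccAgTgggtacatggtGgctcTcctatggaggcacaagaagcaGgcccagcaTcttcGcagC

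The deposited counts summed to between 5106398 and 18640871 reads per library, with strain medians from 10811146.5 in 129 to 13117295 in SWR. Levels below are the deposited normalized counts, which are reads divided by a size factor of the library. Markers of mature vomeronasal neurons were present in every library, with a sum, in reads scaled to library size (rpm), of 2270 to 3070 in SWR, 2340 to 2720 in SJL, 2030 to 2540 in B6 and 2370 to 2890 in 129. The 9 marker lists of other cell types had no marker at 0 in all libraries. Among them, macrophage markers ran from 21.5 to 31.2 rpm in 129 and from 56.5 to 78.9 rpm in B6, with 29.7 to 58.3 rpm in SJL and SWR. Markers of main olfactory neurons ran from 103 to 120 rpm in SWR, from 159 to 214 rpm in SJL, from 105 to 180 rpm in B6 and from 136 to 167 rpm in 129. Those of T lymphocytes reached at most 0.327 rpm in 129 and at least 0.501 rpm in the other strains. The part of these cell types in the results below was not tested. Reads on gene families of other tissues (defensins, placental and keratin-associated genes among them) were few, from 0.27 rpm in 129 to 24.1 rpm in B6 female 4. Markers of ciliated cells reached 365 rpm in 129 male 1 and 237 rpm in B6 female 1, against strain medians of 34.3 to 51.1. In 129 male 4 and SWR male 2, the sum over the 54 V1rs was above that of the other 7 libraries of the strain. Leaving out these libraries, or those high in markers of other tissues, changed no count of V1rs between strains by more than 1.5 times.

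**Figure D1:**
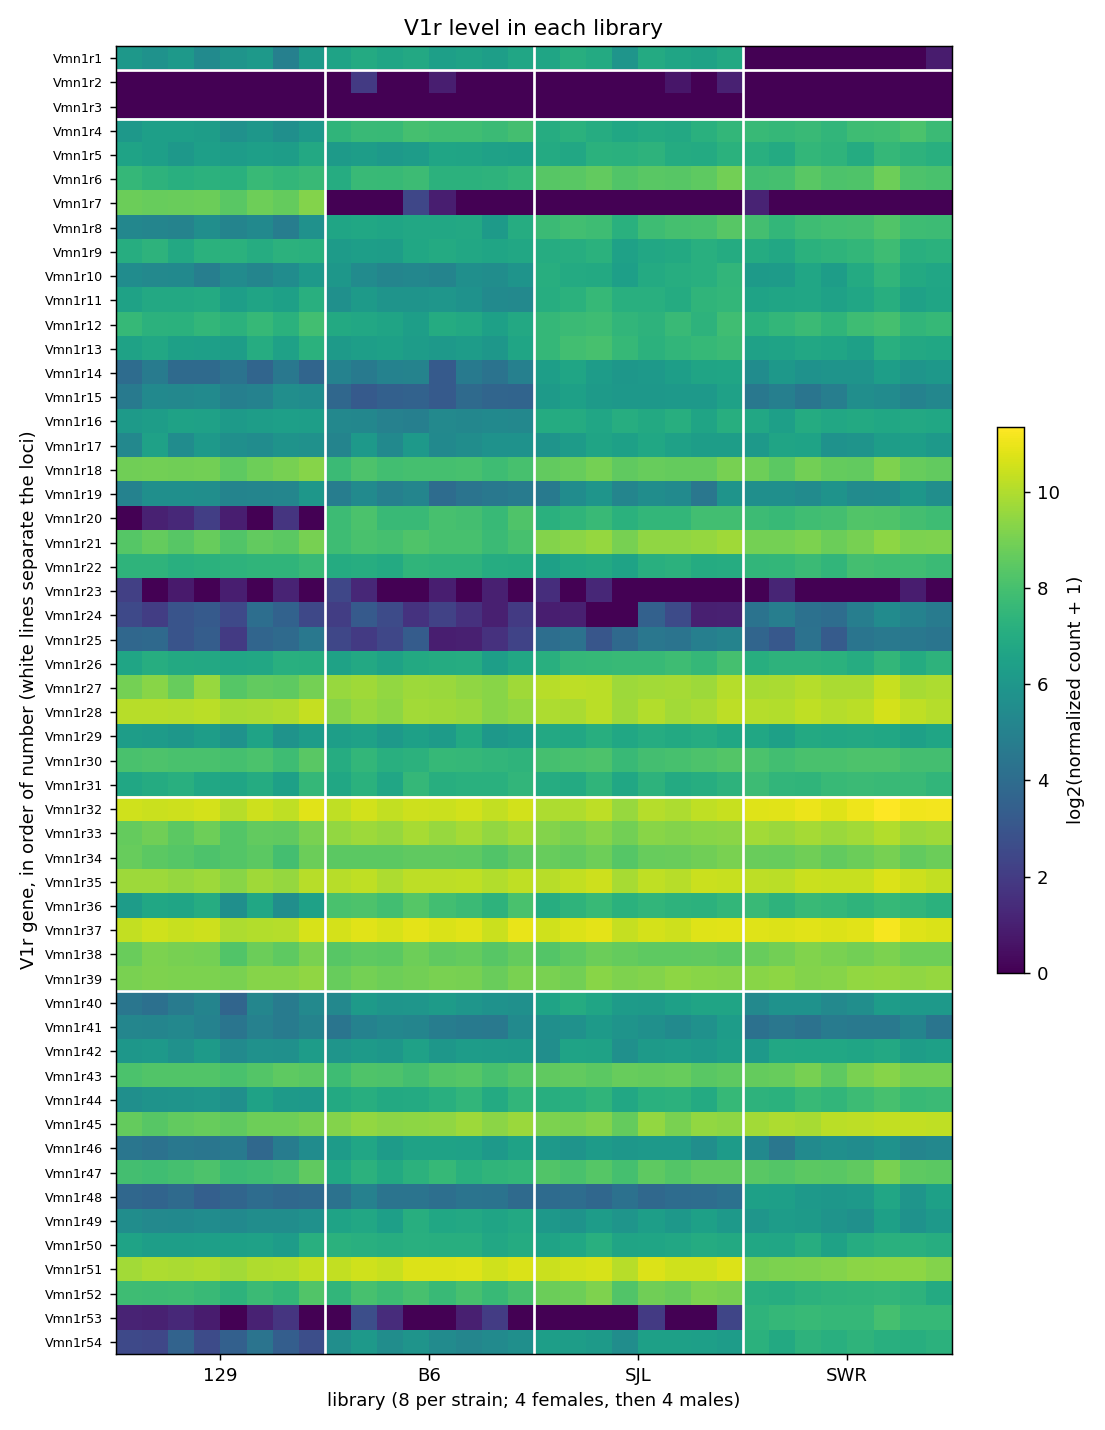
Level of each of the 54 V1r genes (rows, in order of gene number) in each of the 32 libraries (columns, 8 per strain), as log2 of the normalized count + 1. Dark blocks show Vmn1r7 at or near 0 outside 129, Vmn1r20 near 0 in 129, Vmn1r1 near 0 in SWR and Vmn1r53 near 0 outside SWR, while Vmn1r2, Vmn1r3 and Vmn1r23 are near 0 throughout.

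Nearly all of the 54 V1rs had at least 1 read in every strain. Such a read was found for 52 genes in each of 129, SJL and SWR and 53 in B6, and 46 genes had a read in all 32 libraries. These counts include genes near 0 in a strain, such as Vmn1r1 with 1 read in 1 SWR library. Vmn1r3 was listed at 0 in every library. Vmn1r2 had 5 reads and Vmn1r23 had 18 reads over all libraries, and these 3 did not pass the filter on low counts. Of the read-long stretches of Vmn1r2 and Vmn1r3, 42.9% and 70.03% also occur in other genes. The remaining 51 were tested among 18382 genes.

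Relative to coding length, the highest levels of the 54 belonged to V1rc genes of the smaller cluster. Vmn1r37 led with a mean of 1783 normalized counts per kb over the 32 libraries. It was followed by Vmn1r32 with 1652, Vmn1r35 with 1284, Vmn1r51, a V1ra gene, with 1185, and Vmn1r28 with 1108. Reads on untranslated exons are also counted, so that these levels per coding kb are approximate. The 5 genes with the most normalized counts held a share of the summed level of the 54 of 39.2% ± 0.6 in SWR, 39.04% ± 1.1 in SJL, 45.8% ± 0.5 in B6 and 43.6% ± 0.8 in 129 (mean ± SD, n = 8 each).

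The summed level of the 54 genes was 18010.0 ± 1941 normalized counts in SWR, 16473 ± 1748 in SJL, 14306 ± 1266 in B6 and 12900.0 ± 1652 in 129 (mean ± SD, n = 8 each). As a share of all listed Vmn1r genes, they made up 41.0 to 43.0% in SWR, 39.4 to 41.9% in SJL, 35.2 to 38.2% in B6 and 32.3 to 34.5% in 129. The shares in 129, B6 and SJL did not overlap, and those in SJL and SWR did. These sums follow from the genes described next and were not tested.

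The first comparison asked which V1rs differ between strains. A gene was called differentially expressed (DE) with a fold change above 2 and a false discovery rate (FDR) under 0.05 in edgeR's quasi-likelihood test. Of the 51 V1rs tested, 30 (58.8%) were DE in at least 1 pair of strains, where 19.8% of all genes tested were. Among them, 6 were DE in 1 pair, 7 in 2 pairs, 11 in 3 pairs, 5 in 4 pairs and 1 in 5 pairs. DESeq2's Wald test called the same 30 genes.

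Compared with 129, 13 V1rs were DE in B6, 9 higher and 4 lower, where 11.1% of all genes tested were DE, 8.72% higher and 2.4% lower. In SJL 13 were DE against 129, 11 higher and 2 lower, with a background of 8.38% (5.61% higher, 2.76% lower). In SWR 17 were DE against 129, 15 higher and 2 lower, with a background of 7.73% (4.62% higher, 3.11% lower). Between SJL and B6, all 12 DE genes were higher in SJL, where 7.99% of all genes were DE, 2.67% higher and 5.33% lower in SJL. Of 15 DE between SWR and B6, 12 were higher and 3 lower in SWR, with a background of 8.05% (2.52% higher, 5.53% lower). SWR and SJL differed in 8 genes, 3 higher and 5 lower in SWR, with a background of 4.5% (2.19% higher, 2.31% lower). The comparisons share libraries and are therefore not independent of each other.

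The median log2 fold change (LFC) of the 51 V1rs was 0.58 for SJL minus 129 and 0.51 for SWR minus 129. It was 0.36 for SJL minus B6 and 0.56 for SWR minus B6. For B6 minus 129 and SWR minus SJL it was 0.08 and 0.12. The medians over all genes tested lay between -0.02 and 0.02. With genes near 0 in a strain set to the lower bound of their change or left out, the medians of the 51 lay between 0.05 and 0.58. SWR had the highest mean of the 4 strains for 25 of the 51 genes, SJL for 17, B6 for 6 and 129 for 3, where these strains were highest for 20.2%, 21.3%, 31.5% and 27% of all genes tested. The lowest mean was found in 129 for 23 genes and in B6 for 18, where 28.5% and 27.5% of all genes were lowest in these strains.

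**Figure D2:**
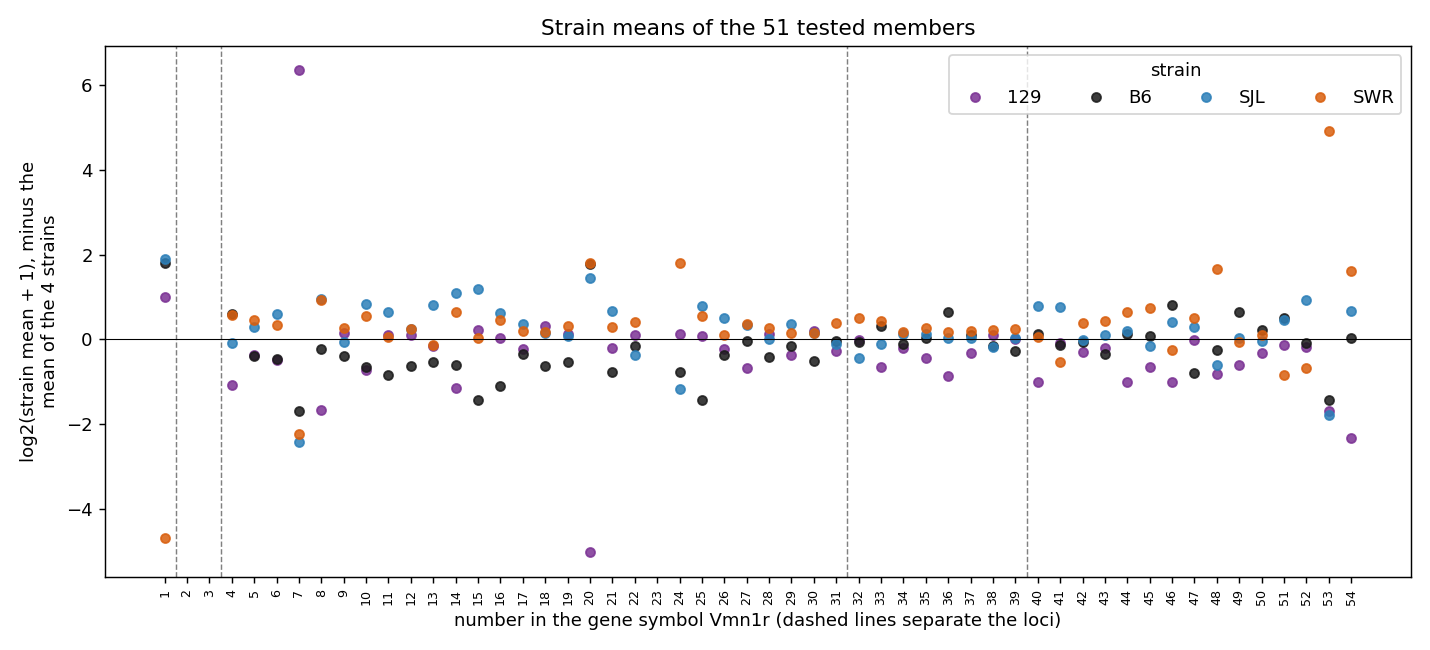
Strain means of the 51 tested V1rs in order of gene number, as log2 of the mean normalized count + 1 minus the mean of the 4 strains. SWR and SJL points lie mostly above the line and those of 129 and B6 below it, and Vmn1r1, Vmn1r7, Vmn1r20 and Vmn1r53 stand far from the others.

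For 4 V1rs, the RNA was near 0 in at least 1 strain and well detected in another. They lay at 3 different loci and differed in the strain concerned.

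Vmn1r7, a V1rc gene at chr6:57024106-57025324, was found in 129. Its normalized counts there had a minimum of 349, a median of 431 and a maximum of 612 over the 8 mice. SJL had 0 reads in all 8 libraries, SWR had at most 1 read in a library and B6 at most 2. The groups were far apart. Relative to a floor of 3 reads per library, the mean of 443 ± 75.8 in 129 (SD, n = 8) was at least 125.5-fold higher than in B6, 153-fold higher than in SJL and 157-fold higher than in SWR (edgeR FDR = 2.13e-21, 7.67e-22 and 6.36e-22).

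Vmn1r20, at chr6:57428930-57435261 in the same cluster, was near 0 in 129 alone. The 129 libraries had 0 to 3.29 normalized counts with a median of 1.0 and at most 4 reads. The other strains ranged from 197 to 295 in B6 (median 233), from 148 to 243 in SJL (median 182) and from 198 to 303 in SWR (median 238). No 129 library came near the others. Against the floor of 3 reads per library in 129, under which its mean lay, the mean was at least 78.2-fold higher in B6, 62.4-fold higher in SJL and 80.3-fold higher in SWR (edgeR FDR = 9.94e-25, 1.03e-23 and 9.07e-25). The 3 other strains differed from each other by an absolute LFC of 0.37 or less.

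Vmn1r1, on chromosome 1, was at 0 in SWR apart from 1 read in 1 library. It ranged from 29.8 to 70.9 normalized counts in 129 (median 61.1), from 80.1 to 121 in B6 (median 98.2) and from 60.1 to 136 in SJL (median 108). The level in SJL was at least 37.5-fold higher than the floor in SWR (edgeR FDR = 5.76e-21). B6 lay wholly above 129, while SJL overlapped both. The closest relative in the annotation, Vmn1r45, was 66.9% identical, and no read-long stretch was shared.

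Vmn1r53, a V1rb gene at chr6:90223317-90224438, was found in SWR, at 167 to 257 normalized counts with a median of 191. B6 and SJL libraries had at most 4 reads and 129 libraries at most 2. The levels did not overlap. The means of all 3 lay under the floor, above which SWR was at least 64.5-fold for 129, 55.7-fold for B6 and 68.0-fold for SJL (edgeR FDR = 1.51e-18, 3.71e-18 and 1.78e-18).

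Reads of all strains were placed on the B6 genome. In strains other than B6, absent transcripts and transcripts whose reads find no unique place because the strain's sequence differs cannot be told apart here. In B6 itself, Vmn1r7 had at most 2 reads in a library and Vmn1r53 at most 4.

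**Figure D3:**
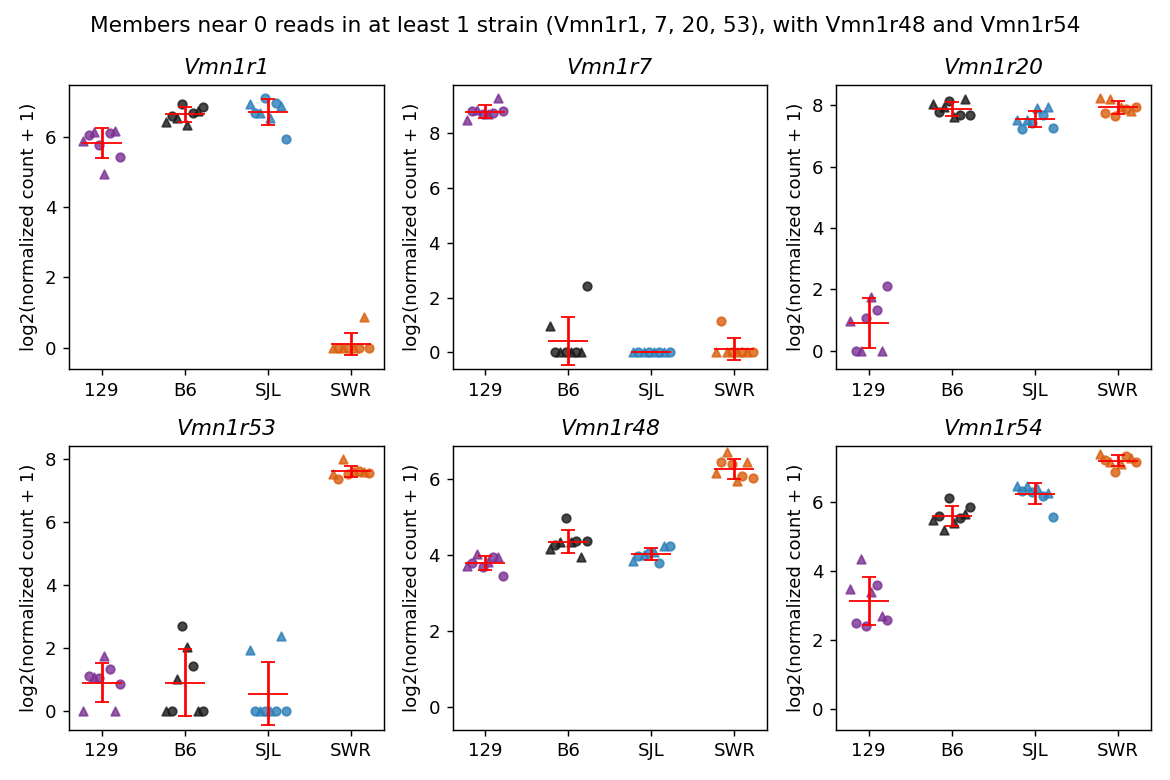
Log2 of the normalized count + 1 in each library (circles for females, triangles for males) for 6 V1rs, with the mean and SD of each strain in red (n = 8). Vmn1r7 is detected in 129 and Vmn1r53 in SWR, Vmn1r1 is near 0 in SWR and Vmn1r20 in 129, and Vmn1r48 and Vmn1r54 are highest in all 8 SWR libraries.

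The cluster of Vmn1r4 to Vmn1r31 was the one in which B6 stood lowest. Of its 28 genes, 27 were tested and 15 were DE in at least 1 pair of strains, where 19.8% of all genes tested were. B6 had the lowest mean for 15 of the 27 (27.5% of all genes tested), SJL had the highest for 13 (21.3%) and SWR for 10 (20.2%). Between SJL and B6, 10 of the 27 were DE and all 10 were higher in SJL, with a background of 2.67% higher and 5.33% lower. The summed level of the cluster ranged from 3536 to 4380 in B6, from 3971 to 5985 in 129, from 5208 to 7452 in SJL and from 5571 to 8029 in SWR, so that B6 did not overlap SJL or SWR. After Vmn1r7 and Vmn1r20, the largest LFCs of the cluster were those of Vmn1r24, Vmn1r15, Vmn1r8, Vmn1r25 and Vmn1r14.

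Vmn1r8, a V1rc gene, was DE in 5 of 6 pairs. It ranged from 27.4 to 53.1 normalized counts in 129 (median 36.2), from 71.0 to 129 in B6 (median 109), from 145 to 341 in SJL (median 236) and from 181 to 308 in SWR (median 231). SJL and SWR overlapped and lay above B6, which lay above 129. The LFC was 2.62 ± 0.14 (SE) for SJL minus 129 (edgeR FDR = 2.06e-17) and -0.02 for SWR minus SJL (edgeR FDR = 0.93).

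Vmn1r15, also V1rc, had 8.33 to 14.2 in B6 (median 11.2), 24.4 to 47.7 in 129 (median 39.4), 20.3 to 47.8 in SWR (median 30.3) and 65.0 to 88.7 in SJL (median 71.2). SJL lay above and B6 below every library of the other strains. The LFC of SJL minus B6 was 2.72 ± 0.17 (edgeR FDR = 1.35e-15). Vmn1r14 was low in 129 (12.02 to 25.6, median 14.7) and B6 (8.38 to 32.9, median 27.0) and higher in SWR (45.0 to 82.4, median 59.4) and SJL (63.2 to 102, median 80.3). For SJL minus 129 its LFC was 2.31 ± 0.19 (edgeR FDR = 2.80e-12).

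Vmn1r24 and Vmn1r25 were among the weakest V1rs tested. Vmn1r24 ranged from 15.4 to 43.2 in SWR (median 26.6) and from 0 to 10.6 in SJL (median 0.98), with 129 (3.20 to 16.4, median 5.71) and B6 (1.01 to 8.33, median 3.03) between them. SWR overlapped only 129 (LFC of SWR minus SJL 3.16 ± 0.40, edgeR FDR = 9.87e-08). Vmn1r25 was lowest in B6, at 0.93 to 8.78 (median 3.30), and reached 7.10 to 32.4 in SJL (median 18.9) with an LFC of 2.58 ± 0.36 (edgeR FDR = 4.74e-07). It had 2.81 to 22.1 in 129 (median 12.4) and 7.61 to 22.8 in SWR (median 19.4), and the groups overlapped. The means of Vmn1r24 in SJL and of Vmn1r25 in B6 lay under the floor of 3 reads per library, so that these LFCs depend on the prior count. Against that floor, Vmn1r24 was at least 9.01-fold higher in SWR and Vmn1r25 at least 5.58-fold higher in SJL.

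Vmn1r21 and Vmn1r27 were the most abundant DE genes of the cluster. Vmn1r21 had 212 to 298 in B6 (median 264), 309 to 510 in 129 (median 374), 446 to 684 in SWR (median 529) and 515 to 853 in SJL (median 705). B6 lay below all other libraries, and SJL minus B6 gave an LFC of 1.43 ± 0.09 (edgeR FDR = 5.76e-15). In contrast, Vmn1r28, the most abundant V1r of the cluster, was not DE, with means of 1190.1 ± 168 in SWR, 1002 ± 124 in SJL, 739 ± 91.2 in B6 and 1083 ± 124 in 129. Vmn1r11, Vmn1r12, Vmn1r15, Vmn1r16, Vmn1r18, Vmn1r21 and Vmn1r30 of this cluster, and Vmn1r47 of the V1ra and V1rb cluster, had all B6 libraries below those of the other strains. These are 8 of the 51, where 1.95% of all genes tested showed it. The groups of Vmn1r12, Vmn1r18 and Vmn1r30 did so at a fold change under 2, so that they were not DE.

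The remaining DE genes of the cluster were lowest in 129 or B6. Vmn1r10 had means of 43.2 ± 11.8 in 129 and 45.7 ± 10.9 in B6, against 130 ± 26.4 in SJL and 106 ± 34.1 in SWR. Vmn1r6 had 173 ± 24.5 in 129 and 176 ± 31.1 in B6, against 367 ± 57.4 in SJL and 304 ± 67.1 in SWR. For both genes SJL lay above 129 and B6 without overlap, with an LFC of SJL minus 129 of 1.58 ± 0.16 and 1.08 ± 0.11 (edgeR FDR = 2.80e-10 and 1.45e-09). Of the read-long stretches of Vmn1r10, 24.8% also occur in Vmn1r9, so that its values are uncertain. Vmn1r13 set SJL apart, at 153 to 261 (median 193) against 62.9 to 150.6 in all other libraries. Vmn1r4 was lowest in 129, at 50.03 to 84.2 (median 65.8), and reached 173 to 252 in B6 (median 219) with an LFC of 1.66 ± 0.12 (edgeR FDR = 4.12e-14).

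In the smaller V1rc cluster, Vmn1r32 to Vmn1r39, 2 of 8 genes were DE, Vmn1r33 and Vmn1r36, near the share of 19.8% over all genes tested. Vmn1r36 shares read-long stretches with Vmn1r37, and the sum of this pair was not DE between any strains. SWR had the highest mean for 7 of the 8 (20.2% of all genes tested) and 129 the lowest for 5 (28.5%). The summed level was 7287 to 9752 in SWR, above 4289 to 6895 in 129, 5681 to 7233 in B6 and 4949 to 6874 in SJL. Vmn1r37, the most abundant of the 54 per coding kb, had means of 1837 ± 221 in SWR, 1627 ± 213 in SJL, 1718 ± 206 in B6 and 1279 ± 226 in 129, a largest LFC, for SWR minus 129, of 0.51 ± 0.09 (edgeR FDR = 3.71e-05). Vmn1r32 reached 1760.4 to 2604 in SWR (median 2106) and was lowest in SJL at 765 to 1339 (median 1056), with an LFC of 0.94 ± 0.09 (edgeR FDR = 2.25e-10), just under the limit. Vmn1r35 ranged from 646 to 1119 in 129 (median 823), from 990.2 to 1226 in B6 (median 1202), from 943 to 1416 in SJL (median 1243) and from 1171 to 1726 in SWR (median 1347), with an LFC of 0.71 ± 0.08 for SWR minus 129 (edgeR FDR = 1.43e-08). Vmn1r33 ranged from 317 to 529 in 129 (median 395), from 489.9 to 658 in SJL (median 619.8), from 733 to 933 in B6 (median 798) and from 786 to 1048 in SWR (median 862). Both B6 and SWR lay above 129 and SJL, and the LFC of SWR minus 129 was 1.06 ± 0.08 (edgeR FDR = 5.70e-13).

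In the cluster of V1ra and V1rb genes, Vmn1r40 to Vmn1r54, 12 of 15 genes were DE (19.8% of all genes tested) and 129 stood lowest. It had the lowest mean for 9 of the 15 (28.5% of all genes tested), SWR the highest for 8 (20.2%). All calls made against 129 in this cluster were of genes higher in the other strain, 6 in SWR, 5 in SJL and 5 in B6. Over all genes tested, 4.62%, 5.61% and 8.72% were higher than in 129, and 3.11%, 2.76% and 2.4% lower. The summed level was 3175 to 4535 in SWR, 3087 to 4494 in SJL, 2987 to 4041 in B6 and 2193 to 3310 in 129, with overlap. Vmn1r54, a V1ra gene, differed in steps, from 129 (4.26 to 19.7, median 7.53) through B6 (35.6 to 69.4, median 47.0) and SJL (46.4 to 87.6, median 79.1) to SWR (118 to 167, median 146). B6 and SJL overlapped, while 129 lay below and SWR above them. The LFC of SWR minus 129 was 4.04 ± 0.19 (edgeR FDR = 1.07e-18). Vmn1r46, a V1rb gene, was lowest in 129 (13.1 to 44.3, median 21.7) and highest in B6 (70.0 to 103, median 90.9), with an LFC of 1.85 ± 0.17 (edgeR FDR = 2.78e-11). Vmn1r49, a V1rb gene known for its response to a ketone of mouse urine, had means of 66.0 ± 12.2 in SWR, 70.1 ± 10.9 in SJL, 107 ± 15.9 in B6 and 44.7 ± 4.6 in 129, with an LFC of 1.25 ± 0.11 for B6 minus 129 (edgeR FDR = 4.28e-11).

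Several genes of this cluster set SWR apart. Vmn1r48, V1ra, had 60.2 to 104 in SWR (median 76.2), against 9.88 to 15.3 in 129 (median 12.9), 14.3 to 30.5 in B6 (median 19.3) and 12.8 to 17.9 in SJL (median 15.2). All SWR libraries lay above all others, with an LFC of 2.56 ± 0.14 over 129 (edgeR FDR = 8.20e-17). Vmn1r45, also V1ra and among the 10 most abundant of the 54 per coding kb, had 868 to 1262 in SWR (median 1173), above 602 to 819.5 in B6 (median 700.2), 399 to 731 in SJL (median 578) and 339 to 521 in 129 (median 411). Its LFC of SWR minus 129 was 1.39 ± 0.08 (edgeR FDR = 1.17e-16). Of the read-long stretches of Vmn1r45, 9.4% also occur in Vmn1r48 or the pseudogene Vmn1r-ps32, to which it is 97.1% identical. Its values are uncertain for that reason.

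Vmn1r51, a V1ra gene that was the most abundant of this cluster, went the other way. SWR had 518 to 692 (median 601), below 863 to 1279 in 129 (median 1006), 1128 to 1745 in SJL (median 1509) and 1251 to 1752 in B6 (median 1581). SWR minus B6 gave an LFC of -1.34 ± 0.08 (edgeR FDR = 1.19e-16). Vmn1r52, its neighbour, had means of 153 ± 19.7 in SWR, 468 ± 81.7 in SJL, 232 ± 36.5 in B6 and 217 ± 42.8 in 129. SJL lay above all other libraries, and the LFC of SWR minus SJL was -1.61 ± 0.12 (edgeR FDR = 2.03e-13). Of its read-long stretches, 36.5% also occur in the gene V1ra8, and its values are uncertain for that reason.

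Vmn1r40, Vmn1r41 and Vmn1r44 completed the cluster's DE genes. Vmn1r44 had 48.8 to 90.7 in 129 (median 59.4), below 118 to 178 in B6 (median 130.2), 111 to 192 in SJL (median 145) and 152 to 266 in SWR (median 202). Vmn1r40 had means of 26.3 ± 9.6 in 129 and 93.8 ± 16.5 in SJL, an LFC of 1.82 ± 0.18 (edgeR FDR = 3.37e-10). Vmn1r41, almost identical to a pseudogene (99.9%), is uncertain for that reason, with 42.5 to 76.2 in SJL above all other libraries.

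The 21 tested genes that were not DE had a largest absolute LFC of 0.95, that of Vmn1r18 for B6 minus 129. They comprised 12 genes of the first cluster, 6 of the second and 3 of the third. Vmn1r34, with means of 342 ± 64.3 in 129 and 441 ± 43.3 in SWR, and Vmn1r38, with 377 ± 38.5 in SJL and 498 ± 55.4 in SWR, were among the steadiest.

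The loci of the genes in which a whole strain stood apart differed with the strain. Those with SWR above the others were Vmn1r45, Vmn1r48, Vmn1r53 and Vmn1r54, all of the V1ra and V1rb cluster. Those with B6 below, given above, were of the first cluster apart from Vmn1r47. Those with SJL above were Vmn1r13 and Vmn1r15 of the first cluster and Vmn1r41 and Vmn1r52 of the V1ra and V1rb cluster. All libraries of SWR lay above the others for 4 of the 51 V1rs (background 1.21%) and below them for 2 (0.642%). SJL lay above for 4 (0.794%) and below for 0 (0.772%). 129 lay above for 1 (1.44%), Vmn1r7, and below for 6 (1.44%), namely Vmn1r4, Vmn1r8, Vmn1r20, Vmn1r36, Vmn1r44 and Vmn1r54. B6 lay above for 0 (1.57%). On log2 of the normalized count + 1, the median share of variance between strains was 78.4% over the 51 V1rs and 42.5% over all genes tested. The median coefficient of variation within a strain was 16.4% for the V1rs and 12.4% for all genes tested.

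Some pairs of close copies were examined together, because a read can be placed on either. Others, such as Vmn1r9 and Vmn1r10, were not tested as a sum. The reads of Vmn1r7 plus Vmn1r8 gave 383 to 665 normalized counts in 129, 181 to 308 in SWR, 145 to 341 in SJL and 71.0 to 129 in B6. Vmn1r7 made up 92.02% ± 1.0 (SD, n = 8) of the sum in 129 and under 1% in the other strains. 129 was thus lowest for Vmn1r8 and highest for the sum, and the LFC of the sum was -1.02 ± 0.11 for SJL minus 129 and -2.19 ± 0.12 for B6 minus 129 (edgeR FDR = 3.75e-09 and 1.37e-16). For Vmn1r20 plus Vmn1r27 no reversal was found. The sum was 1153 to 1653 in SWR, 971 to 1372 in SJL, 835 to 1146 in B6 and 330.4 to 775 in 129, and the LFC of SWR minus 129 was 1.36 ± 0.12 (edgeR FDR = 1.66e-11). Alone, Vmn1r27 had 329 to 772 in 129 (median 460.2) and 924 to 1357 in SWR (median 957), an LFC of 1.06 ± 0.12 (edgeR FDR = 5.42e-09). This last call was lost without 129 male 1 (LFC 0.99) or without SWR male 2 (LFC 0.98).

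Vmn1r47 and Vmn1r48 shared more of their sequence. In Vmn1r48, 46.4% of the read-long stretches also occur in another gene, and the partners differed by 13 of 120 bases at chr6:90035972-90036091, minus strand, and chr6:90022638-90022757, plus strand.
Vmn1r48: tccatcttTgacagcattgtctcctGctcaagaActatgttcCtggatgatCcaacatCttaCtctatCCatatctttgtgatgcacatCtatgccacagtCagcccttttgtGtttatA
Vmn1r47: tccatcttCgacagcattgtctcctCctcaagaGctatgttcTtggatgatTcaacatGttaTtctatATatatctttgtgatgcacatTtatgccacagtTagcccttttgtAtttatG

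Vmn1r48 made up 17.1% ± 2.4 of the pair in SWR, 11.7% ± 3.2 in B6, 4.82% ± 0.99 in 129 and 4.58% ± 0.96 in SJL. The sum of the pair was DE between SWR and B6 alone, with an LFC of 1.39 ± 0.10 (edgeR FDR = 1.23e-13). Vmn1r36 and Vmn1r37 were 98.8% identical over the coding sequence of Vmn1r36, and 48.3% of its read-long stretches occur in Vmn1r37. Vmn1r36 was DE, with 88.1 ± 28.6 in 129 against 165 ± 19.9 in SJL, 180.0 ± 21.4 in SWR and 251 ± 51.4 in B6 (LFC of B6 minus 129 1.5 ± 0.14, edgeR FDR = 4.24e-11), while the sum of the pair was not DE in any of the 6 pairs of strains (largest LFC 0.55 ± 0.09, edgeR FDR = 1.15e-05). Of the 19 tested V1rs with such shared stretches 14 were DE, and of the 32 without them 16 were, where 19.8% of all genes tested were.

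**Figure D4:**
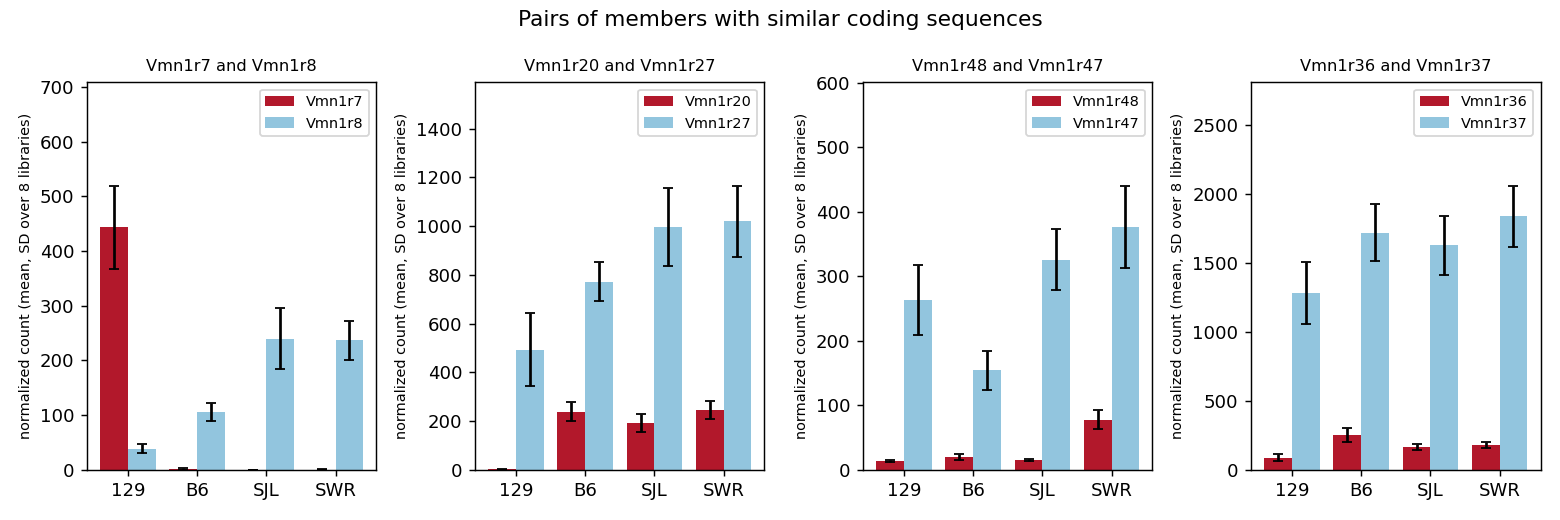
Bars show the mean normalized count with its SD over the 8 libraries of each strain for both members of 4 pairs of close copies. In 129, Vmn1r7 is at 443 and Vmn1r8 at 38.5, whereas in B6, SJL and SWR Vmn1r7 is at or near 0 and Vmn1r8 has means between 106 and 240.

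Other genes of the pathway were examined in the same fit. Of 33 genes listed for transduction, apical or basal neurons, receptor choice and maturation, 31 were tested and 2 were DE in at least 1 pair of strains, against 19.8% of all genes tested. They were Plcb2, a phospholipase C of the signalling cascade, with 92.01 ± 15.2 normalized counts in 129 and 190 ± 24.5 in B6 (LFC 1.05, edgeR FDR = 7.91e-12), and Kcnj3, a potassium channel subunit, with 18.9 ± 4.6 in B6 and 162 ± 17.4 in SWR (LFC of SWR minus B6 3.11, edgeR FDR = 2.98e-21). Trpc2 was listed at 0 in every library, and Xntrpc, a readthrough gene that includes it, had 1032 ± 110 in SWR, 833 ± 72.8 in SJL, 715 ± 52.0 in B6 and 1213 ± 138 in 129. Gnai2, the G protein subunit of V1r neurons, had 8167 ± 994 in SWR, 8753 ± 712 in SJL, 6044 ± 574 in B6 and 8302 ± 601 in 129. Its largest LFC was 0.53 for SJL minus B6 (edgeR FDR = 3.39e-08).

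None of the 5 genes listed for apical neurons was DE. Meis2, a transcription factor of apical neurons, had 3712 ± 161 in SWR, 3356 ± 138 in SJL, 3055 ± 118 in B6 and 3120.0 ± 129 in 129. Pde4a, a phosphodiesterase of apical neurons, was highest in 129 (581 ± 62.5) and lowest in SWR (322 ± 32.6), an LFC of -0.86 (edgeR FDR = 3.01e-09). Gnao1, the subunit of basal neurons, had means of 1420.0 to 1900.0 and Omp, a marker of mature sensory neurons, of 16610 to 19530. The part of these differences in those of the V1rs was not tested.

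The second comparison asked whether V1rs differ between the sexes across strains. None of the 51 was called (0 genes with a fold change above 2 and an edgeR FDR under 0.01), where 7 of 18382 genes, 0.0381%, were. DESeq2 called 0 as well, and 16 genes had an unadjusted p under 0.05 in each tool. Over all genes tested, 8.97% had an unadjusted edgeR p under 0.05. The largest difference, an LFC of 0.63 ± 0.29 for males minus females, was that of Vmn1r24 (edgeR FDR = 0.51), one of the weakest genes. The LFC was positive for 39 of the 51, with a median of 0.10, where 49.4% of all genes had a positive LFC and the median was -0.001. The libraries with the highest summed V1r level of their strain in 129 and SWR, 129 male 4 and SWR male 2, are both males. Without them, the LFC was positive for 34 of the 51 with a median of 0.04, where 48.8% of all genes had a positive LFC.

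At an FDR under 0.05 with no limit on fold change, 3 V1rs were higher in males (52 of 18382 genes, 0.283%, passed in either direction). They were Vmn1r45 (LFC 0.27 ± 0.05, edgeR FDR = 0.015), Vmn1r39 (LFC 0.17 ± 0.04, edgeR FDR = 0.031) and Vmn1r22 (LFC 0.26 ± 0.06, edgeR FDR = 0.041). Without 129 male 4 and SWR male 2, 0 of the 51 passed, and these genes had an LFC of 0.25 ± 0.06, 0.15 ± 0.04 and 0.24 ± 0.06 (edgeR FDR = 0.062, 0.12 and 0.14). Vmn1r45 had 1233 ± 28.5 normalized counts in SWR males and 985 ± 118 in SWR females (n = 4 each), which did not overlap, and 668 ± 90.6 and 524 ± 86.7 in SJL males and females, which did. In 129 it had 454 ± 55.5 in males and 388 ± 34.5 in females, and in B6 746 ± 76.4 and 670.0 ± 51.8, with overlap in both. Vmn1r39 had 733 ± 24.2 in SWR males and 643 ± 36.5 in SWR females, without overlap. Males had the higher mean of each of these 3 genes in all 4 strains. Vmn1r22 was separated by sex in SJL, at 138 ± 12 in males and 102 ± 13.9 in females. The largest LFC between strains of these genes was 1.39 for Vmn1r45 (SWR minus 129), 0.80 for Vmn1r22 (SWR minus SJL) and 0.50 for Vmn1r39 (SWR minus B6).

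The interaction of sex and strain asked whether a sex difference depends on the strain. It was called for 0 of the 51 V1rs (edgeR FDR under 0.05), where 3 of 18382 genes, 0.0163%, were called, and DESeq2 called 0 of the 51. An unadjusted edgeR p under 0.05 was found for 5 (8.94% of all genes tested) and a DESeq2 p under 0.05 for 6, and the smallest was that of Vmn1r4 (FDR = 0.41), with 58.1 ± 8.1 in 129 males and 77.7 ± 8.8 in 129 females, and 238 ± 30.7 in SWR males and 192 ± 12.7 in SWR females.

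**Figure D5:**
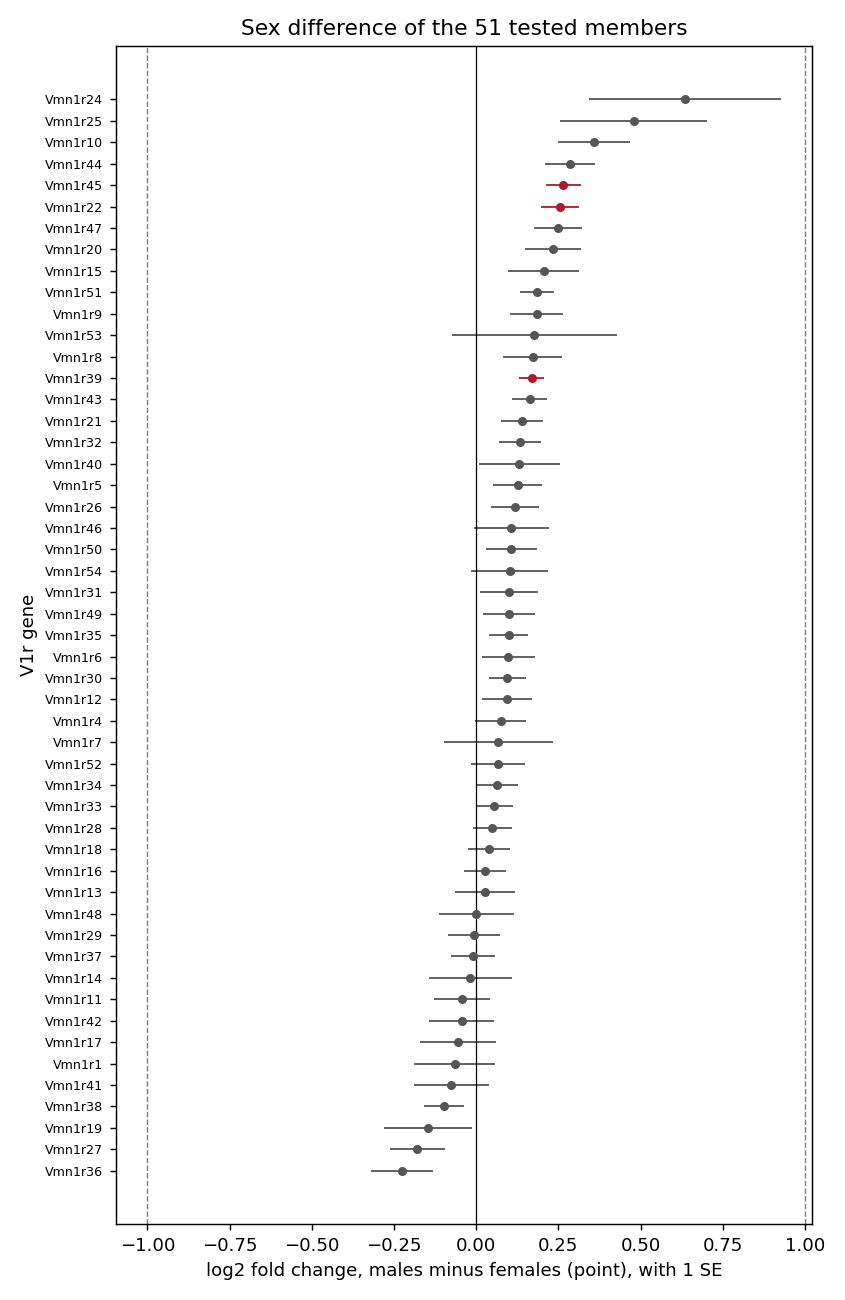
Log2 fold change of males minus females with its SE for the 51 tested V1rs, with dashed lines at a fold change of 2 in either direction and red points at an FDR under 0.05. No point passes the dashed lines, and 39 points lie to the right of 0.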

How the data were processed

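Total RNA of the VNO epithelium of each mouse was ribodepleted, made into stranded TruSeq libraries and sequenced in read pairs. Per the authors, adapters were trimmed with Trim Galore, reads were aligned to GRCm38 (mm10) with STAR, and the deposited counts are the unique read pairs on the reverse strand of each Ensembl gene. The deposited normalized signal is that count after scaling by DESeq2 size factors, and within a library both tables differed by 1 constant factor.

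Counts were analysed with edgeR 4.0.16 (limma 3.58.1, R 4.3.3), by the quasi-likelihood F test after TMM normalization. Low genes were removed by filterByExpr with the 8 strain-by-sex groups. The 32 libraries entered 1 model with strain and sex, and p-values were adjusted after Benjamini and Hochberg over 18382 genes. Strain pairs were called with a fold change above 2 and an FDR under 0.05, sexes with an FDR under 0.01, and the interaction (3 terms) with an FDR under 0.05. Each standard error was derived from the LFC and its F statistic. DESeq2 1.42.0 served as an alternative. No library was left out, and the 48 pairs of libraries within a group differed by more than sampling noise (chi-square per degree of freedom of at least 2.71). Depth limits low genes, and a floor of 3 reads per library was used for lower bounds.

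Coding sequences, loci and identities are from GENCODE M21 on GRCm38 and clades from RefSeq synonyms. The identifiers of 34 of the 54 genes occur in M21, and the rest were matched by symbol. The genes described in every strain by rule were the 12 with the largest LFC, those at the floor in a strain, the 5 highest per coding length, the 3 with the smallest p between sexes and the 5 DE genes with the most reads. Values of other genes of the 54 (such as Vmn1r4, Vmn1r6, Vmn1r10, Vmn1r13, Vmn1r34, Vmn1r36, Vmn1r38, Vmn1r40, Vmn1r41, Vmn1r44, Vmn1r49 and Vmn1r52) are given outside this rule, chosen after they were seen. The genes and lists were chosen with earlier results of these data known.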

Additional observations from a re-analysis of the deposited data

Results flagged for a closer look

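Within the 8 libraries of a strain, 14 of 87 combinations of a named V1r and a strain had a highest or lowest library whose gap to the nearest, divided by the whole range, passed Dixon's 95% critical value. Chance gives about 1 in 20 such cases, but the combinations share libraries and are not independent, and 9 of the 14 were in 129 male 4 or SWR male 2. SWR male 2 was the highest library for Vmn1r27 (1357 normalized counts, against 924 to 1087 in the other 7), Vmn1r28 (1568, against 1050.2 to 1242), Vmn1r37 (2358, against 1649.6 to 1849) and Vmn1r53 (257, against 167 to 199). The library 129 male 4 was the highest for Vmn1r7 (612, against 349 to 460.1), Vmn1r22 (206, against 144 to 173), Vmn1r35 (1119, against 646 to 843), Vmn1r46 (44.3, against 13.1 to 26.2) and Vmn1r51 (1279, against 863 to 1036). In 129 male 4 the sum of the 54 V1rs was 16261 (10510.0 to 13589 in the other 7) and that of the other Vmn1r genes 31482 (21241 to 26338), while Gnai2 was 7600.0 (7508 to 8854), and Gnao1 at 1444 (1721 to 2273) and Omp at 17511 (17701 to 21055) were below those of the other 7. In SWR male 2 these sums were 22317 (16202 to 18324) and 29935 (21480.0 to 26418), with Gnai2 at 8103 (6797 to 9901), Gnao1 at 1569.6 (1503.6 to 1888.6) and Omp at 18598 (16761 to 23292).

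The remaining outlying values were Vmn1r24 at 10.6 in SJL male 1 (0 to 5.0 in the others), Vmn1r25 at 8.78 in B6 female 4 (0.93 to 4.26), Vmn1r48 at 30.5 in B6 female 2 (14.3 to 19.7), Vmn1r54 at 19.7 in 129 male 2 (4.26 to 11.2) and Vmn1r54 at 46.4 in SJL female 4 (72.4 to 87.6). B6 female 2 and B6 female 4 were also the libraries with the most reads on gene families of other tissues. The cause of these values was not tested.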

How the results depend on the processing

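The number of V1rs DE between strains was 30 to 31 when each of the 32 libraries was left out in turn. With the reads of the examined close pairs summed, so that each pair counted as 1 gene, it was 26. It was 30 with DESeq2's test and 30 with the replicate block, which used the lane number in the labels. Libraries with the same number deviated together by r above 0.1 in 22 of 112 pairs, with a median r of -0.013 and a largest of 0.477. The median r was 0.011 for different numbers. The share of those pairs with r above 0.1 was not computed, so that it was not settled whether the number pairs the mice. The block changed no count by over 1.5 times. The share of all genes tested that pass other limits on fold change was not computed, so that the next counts have no background. With a fold change above 1.5, 46 V1rs were DE, and 25, 26, 25, 25, 28 and 17 for B6 minus 129, SJL minus 129, SWR minus 129, SJL minus B6, SWR minus B6 and SWR minus SJL. Above 4, 11 were, and 3, 5, 7, 2, 4 and 4 for B6 minus 129, SJL minus 129, SWR minus 129, SJL minus B6, SWR minus B6 and SWR minus SJL. Between the sexes, 3 V1rs passed with an FDR under 0.05 in place of 0.01 and no limit on fold change, and 0 of them without 129 male 4 and SWR male 2. Without a filter on low counts, the interaction called 1 V1r, Vmn1r27 (FDR = 0.030), among 44957 genes tested. The share of all genes called in that fit was not computed, and the cause of the call was not tested. Depth limits Vmn1r24 and Vmn1r25, which had at most 55 and 31 reads in a library. For the 23 genes described by rule, the LFC of the strain pair with the largest difference was recomputed, and 871 of 874 values kept their direction and call. Other LFCs between strains were not recomputed singly. The 3 others were those of Vmn1r27 for SWR minus 129 without 129 male 1, without SWR male 2, or without the 4 libraries high in markers of other tissues (LFC 0.999), an alternative chosen after seeing the data, as were the fit without 129 male 4 and SWR male 2 and the sums of close pairs.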
